A study of Arabidopsis thaliana with 36 samples.

Results

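The transcriptomes of hypocotyls from Arabidopsis thaliana seedlings grown on the International Space Station (FLT) were compared with those of hypocotyls from a matched ground control (GC). The comparison used 10 of the 36 arrays of the series, 5 from FLT and 5 from GC hypocotyls, chosen by the organ and environment that their labels give. In each environment 1 sample came from plate 2, 2 from plate 4 and 2 from plate 6, all in the upper tier of the plate holder, and each sample was a pool of several seedlings. All seedlings had grown for 12 days on upright plates of solid medium inside the same kind of Advanced Biological Research System (ABRS) chamber, on board the station for FLT and in the Orbital Environmental Simulator at Kennedy Space Center for GC, where the run was delayed so that cabin conditions could be copied. Every pool mixed 2 accessions, 60% WS and 40% Col-0, and every seedling carried 1 of 3 GFP reporters, driven by the alcohol dehydrogenase promoter (Adh::GFP), by the synthetic auxin response element DR5 (DR5::GFP) or by the constitutive CaMV 35S promoter (UB::GFP in the labels). FLT and GC therefore shared accessions, reporters, age, hardware and preservation in RNAlater, and the reporter lines were not kept apart on the arrays. Samples of the same plate and environment grew on 1 physical plate. The p-values of FLT against GC thus mix the spread within and between 3 plates of 1 run. The main comparison and the permutation tests took the 5 pools of a group as independent. Pools of 1 physical plate were correlated (estimated at 0.213), so these p-values and standard errors can be too small for 3 plates a group.

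The hypocotyl is the embryonic stem between the root and the leaf rosette. It grows almost entirely by cell expansion, which auxin, gibberellin, brassinosteroid and ethylene adjust and which light restrains through the transcription factor HY5, a factor that also activates flavonoid and anthocyanin genes. Once elongation slows, its vascular cylinder lays down secondary walls. Expansins, xyloglucan endotransglucosylase/hydrolases (XTHs), peroxidases and pectin-degrading enzymes loosen or stiffen the primary wall. Touch and wounding switch on a rapid set of transcription factor genes in most plant tissues, and jasmonate is a wound hormone whose JAZ repressor genes are themselves induced by it.

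The values are MAS5 signals, a linear intensity per probe set, and 22746 probe sets that are not array controls were tested on the log2 scale by limma. Of these, 13491 (59.3%) had a mean signal of at least 100 over the 10 arrays, and the description below rests mainly on them. Median signals per array ran from 169 to 180. The 2 arrays of 1 plate correlated at 0.964 to 0.975 over the probe sets of at least 100, other pairs within an environment at 0.929 to 0.963 (median 0.945), and pairs of an FLT and a GC array at 0.907 to 0.962 (median 0.951). The first principal component held 28.9% of the variance and ran from the GC arrays of plate 4, at -30.1 and -42.2, to the FLT arrays of plate 6, at 34.8 and 25.2, so the arrays did not separate by environment alone. Signals near the 5′ end of some control transcripts, but not of all, lay lower in FLT. The 5′ probe set of GAPDH was at 1506 to 2445 (median 1595) in FLT against 2022 to 3810 (median 2810) in GC (exact permutation p = 0.0238, two-sided), a second GAPDH 5′ probe set at 6882 to 8165 against 7852 to 11751 (exact p = 0.0238) and that of actin at 2363 to 2602 against 2467 to 4916 (exact p = 0.0317), while the ratio of 3′ to 5′ signal of UBQ was 3.53 to 4.54 against 2.77 to 3.54 (exact p = 0.0159). The adjusted p of each was 0.143 over 18 such comparisons, and a comparison of 5 against 5 arrays, taken alone, could not have come below that. A second actin 5′ probe set was level, with a median of 287 in both groups (exact permutation p = 0.865). The 5′ probe sets of UBQ had medians of 6802 against 7856 (exact p = 0.0714) and 12860 against 14633 (exact p = 0.230). For the remaining 3′ to 5′ ratios the exact p was 0.103 to 0.897. Whether the lower 5′ signals had a part in the differences below was not tested. Summed signals of 21 leaf markers were 102884 to 138805 in FLT and 112508 to 153136 in GC (exact permutation p = 0.183), 18 of the 20 that had a mean of at least 100 were lower in FLT, and none had an unadjusted p under 0.05. By plate, 13, 1 and 1 of these 20 were higher in FLT on plates 2, 4 and 6, so the direction was not shared by plate 2. Of all probe sets of at least 100, 46.3% were higher in FLT. The 22 root markers summed to 13975 to 21656 in FLT and 12926 to 22036 in GC, mostly from BGLU23, and 4 of them had a mean of at least 100. No marker of stomata or of seed maturation had a mean of at least 100. In samples of whole tissue, fewer cells of a type and less RNA per cell cannot be told apart.

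At an adjusted p under 0.05, 1 probe set of 22746 (0.0044%) passed, and 1416 had an unadjusted p under 0.05. At the thresholds that the study used, an unadjusted p under 0.01 with a fold change of at least 1.9, there were 96 probe sets higher in FLT (0.422%) and 77 lower (0.339%), and 127 of these 173 had a mean signal under 100. Among the 13491 probe sets of at least 100, 25 were higher (0.185%) and 21 lower (0.156%), and the smallest adjusted p was 0.198. Of these 46, 40 had the same sign on plates 2, 4 and 6, 19 higher and 21 lower. The groups did not overlap for 22 of them, 9 higher and 13 lower. Both counts follow in part from the choice of the 46 by p and fold on these same arrays, and are no added support. Among all probe sets of at least 100, chosen by neither, 75 were higher (0.556%) and 121 lower (0.897%) without overlap. The count of 46 rested in part on single arrays, since it was 79 without FLT plate 2, 82 without replicate 2 of GC plate 6, 24 without replicate 1 of FLT plate 6 and 26 without replicate 1 of GC plate 4. On plate means, 3 against 3, it was 16. Below, "past the thresholds" means an unadjusted p under 0.01 and at least 1.9-fold, with no claim that the adjusted p passed. The signals of a gene are listed in a fixed order, which is plate 2, plate 4 replicates 1 and 2, and plate 6 replicates 1 and 2. Differences are FLT minus GC on the log2 scale and are given ± the standard error (SE) of limma. No member of any gene list had an adjusted p under 0.05. Among all probe sets of at least 100, 2.69% were higher and 3.22% lower at an unadjusted p under 0.05. List counts at that p stand beside these shares, and nothing is read from 1 member of a list.

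The probe set that passed the adjusted test was that of AT2G15130. Its signals were 22.3, 42.5, 30.0, 48.2 and 21.6 in FLT hypocotyls and 2.84, 3.37, 1.74, 2.64 and 4.51 in GC hypocotyls. All FLT arrays lay above all GC arrays, and the difference was 3.44 ± 0.31 with a limma adjusted p of 0.0228. Every one of these signals is far below 100, in a range where MAS5 values are mostly background, and with an offset of 30.7 added before log2 the difference was 0.90 and no longer passed. Leaving out FLT plate 2, either FLT array of plate 4, GC plate 2 or replicate 1 of GC plate 6 also ended the call, which held without any 1 of the other 5 arrays. In leaves and roots the same probe set differed by -1.69 and 0.61, neither with an unadjusted p under 0.05.

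Of the gene lists, that of flavonoid and anthocyanin synthesis had the lowest median, with most of its members lower in FLT hypocotyls. Of the 17 listed phenylpropanoid and flavonoid genes with a mean of at least 100, 14 were lower and 3 higher, with a median difference of -0.92 beside -0.02 over all probe sets of at least 100. Of the 17, 7 were higher on plate 2, 2 on plate 4 and 4 on plate 6. At an unadjusted p under 0.05, 9 of the 17 were lower and 2 higher, where 3.22% of all probe sets of at least 100 were lower and 2.69% higher. Past the thresholds, 3 were lower (PAP1, UF3GT and TT4) and 2 higher (MYB4 and MYB7). The shares of all probe sets of at least 100 were 0.156% lower and 0.185% higher. TT4, which encodes chalcone synthase, the entry enzyme of the flavonoid branch, had signals of 1875, 1767, 2581, 530.4 and 752 in FLT and 2449.6, 5233, 5385, 5059 and 2464 in GC. The FLT arrays of plate 6 were lowest and the groups overlapped, since replicate 2 of FLT plate 4 passed 2 GC arrays, with a difference of -1.60 ± 0.47 (limma adjusted p = 0.704) that was -0.39, -1.31 and -2.48 on plates 2, 4 and 6. DFR, dihydroflavonol reductase of the anthocyanin branch, had signals of 1432, 1083, 2311, 396 and 512 in FLT and 1833, 3853, 4352, 4227 and 1604 in GC. Again plate 6 in flight stood lowest, and the difference was -1.63 ± 0.53 (limma adjusted p = 0.737).

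The genes of the steps between and after these also had lower FLT signals. F3H (flavanone 3-hydroxylase) differed by -1.63 ± 0.58, TT7 (flavonoid 3′-hydroxylase) by -1.53 ± 0.54 and TT5 (chalcone isomerase) by -1.04 ± 0.38, each at an unadjusted p under 0.05. GSTF12, the glutathione transferase TT19 that carries anthocyanins towards the vacuole, differed by -1.46 ± 0.47. Among the glycosyltransferases that decorate anthocyanins, UF3GT had 429, 291, 612, 127 and 192 in FLT and 771, 1242, 1034, 1370.2 and 513 in GC, with -1.71 ± 0.45 (limma adjusted p = 0.656). AT4G14090, the anthocyanidin 5-O-glucosyltransferase gene, differed by -1.52 ± 0.41 (limma adjusted p = 0.666). In UGT78D2, the 3-O-glucosyltransferase gene, the groups did not overlap, with 855, 421, 729.6, 517 and 600.4 in FLT and 1165, 1329.6, 1159, 1165 and 945 in GC, at a fold just short of 1.9 (difference -0.92 ± 0.20, limma adjusted p = 0.599). The general phenylpropanoid steps upstream, which also feed lignin, gave smaller differences. PAL1 differed by -0.17 ± 0.14, PAL2 by -0.29 ± 0.24, C4H by -0.02 ± 0.12 and 4CL1 by -0.18 ± 0.24, all with overlapping groups and unadjusted p-values over 0.2. On GC plate 6 the 2 replicates themselves differed, since replicate 2 lay at 1093 for F3H, 1604 for DFR and 206 for TT7 against 3246, 4227 and 532 in replicate 1.

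**Figure D1:**
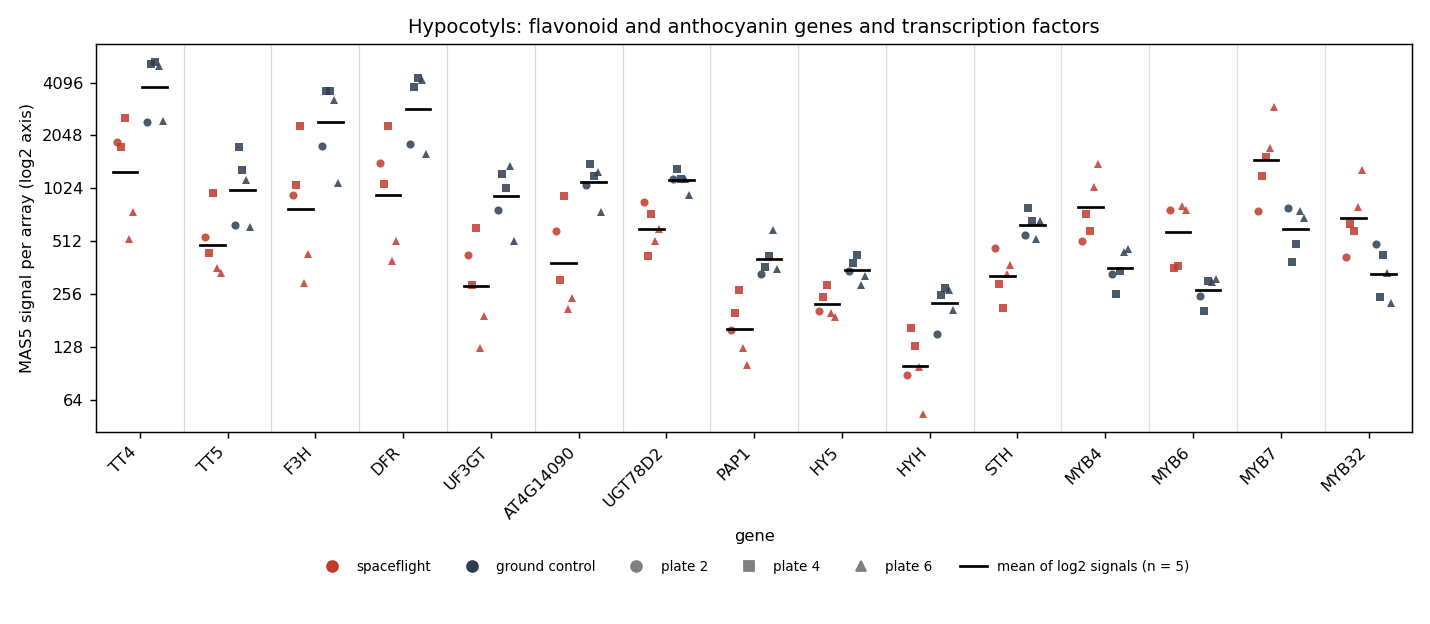
MAS5 signals on a log2 axis of flavonoid and anthocyanin genes and of transcription factor genes, not all of which are known to act on them. Each point is an array, coloured by environment and shaped by plate, with bars at the mean of log2 signals (5 arrays a group). The enzyme genes from TT4 to UGT78D2 and PAP1, HY5, HYH and STH lie lower in FLT, while MYB4, MYB6, MYB7 and MYB32 lie higher, and triangles (plate 6) mark the lowest FLT values of TT4 (530 and 752).

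Transcription factor genes of this pathway and of light signalling were found in both directions. The list also held the factor genes MYB12, MYB111, PAP2, TT8 and GL3, whose values are not given here. PAP1, the MYB activator of anthocyanin genes, had signals of 160.1, 202, 270.2, 127 and 102 in FLT and 336, 367, 425, 592 and 356 in GC. No FLT array reached the lowest GC array, with a difference of -1.32 ± 0.28 (limma adjusted p = 0.599) that was -1.07, -0.76 and -2.01 on plates 2, 4 and 6. HYH, the close relative of HY5, had 89.7, 165, 131, 98.5 and 53.5 in FLT and 153, 254, 277, 273 and 209 in GC, which overlapped through GC plate 2 (difference -1.18 ± 0.31, limma adjusted p = 0.656). HY5 itself had 207, 246.2, 291, 201 and 191 in FLT and 346, 386, 428, 288 and 326 in GC, where 1 FLT array on plate 4 passed 1 GC array on plate 6. Its difference of -0.65 ± 0.16 (limma adjusted p = 0.656) stayed under 1.9-fold and was alike on the plates, -0.74, -0.60 and -0.64 on plates 2, 4 and 6. STH, a B-box zinc finger gene of light signalling, was past the thresholds without overlap, at 468, 294, 215, 337 and 376 in FLT and 556, 792, 673, 526 and 669.6 in GC (difference -0.96 ± 0.22). ELIP2, which encodes a light-stress protein of the chloroplast, differed by -1.03 ± 0.35 (limma adjusted p = 0.763) with -0.97, -0.14 and -1.96 on plates 2, 4 and 6. In the listed genes of light signalling and shade as a whole the median was 0.07, with 11 of 19 higher and 8 lower. The 3 lower ones at an unadjusted p under 0.05 were HY5, HYH and ELIP2. Over all probe sets of at least 100, 3.22% were lower at that p.

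MYB4, MYB6, MYB7 and MYB32, genes of R2R3-type MYB factors, were past the thresholds and higher in FLT. They were not taken from a list of MYB genes, and how many others were measured was not counted. MYB4, a repressor of phenylpropanoid genes, had signals of 515, 733, 589.9, 1039 and 1412 in FLT and 337, 258, 348, 446 and 467 in GC. All FLT arrays lay above all GC arrays, with 1.14 ± 0.30 (limma adjusted p = 0.656) and differences of 0.61, 1.13 and 1.41 on plates 2, 4 and 6. MYB6 had 777, 364, 373, 816 and 773 in FLT and 252.4, 207, 306, 299 and 311 in GC, also without overlap (difference 1.096 ± 0.28). MYB7 and MYB32, the nearest relatives of MYB4, differed by 1.30 ± 0.36 and 1.07 ± 0.33, but on plate 2 by -0.06 and -0.24, so their difference came from plates 4 and 6. MYB7, MYB32, AT4G14090 and the enzyme genes other than UGT78D2 were chosen for naming after their values were seen.

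Of the 22 listed jasmonate genes, 19 were higher in FLT hypocotyls, where 46.3% of all probe sets of at least 100 were. The list median was 0.54. The median was largest on plate 4, with 0.21, 1.03 and 0.28 on plates 2, 4 and 6, where 13, 17 and 17 genes were higher. At an unadjusted p under 0.05, JAZ7, JAZ8, JAZ1, ORA59 and PDF1.2 were higher and COI1, the jasmonate receptor gene, was lower. Over all probe sets of at least 100, 2.69% were higher and 3.22% lower at that p. Past the thresholds were JAZ7 and ORA59, both higher, beside 0.185% of all probe sets of at least 100. JAZ7, a repressor of jasmonate responses, had signals of 533, 502, 542, 1289 and 608 in FLT and 129, 21.1, 52.4, 150.2 and 351 in GC. Every FLT array lay above every GC array, with a difference of 2.78 ± 0.68 (limma adjusted p = 0.656) that was 2.05, 3.97 and 1.95 on plates 2, 4 and 6. JAZ8 had 381, 548, 633, 2503 and 1881 in FLT and 201, 44.4, 12.8, 378 and 400.3 in GC, overlapping where FLT plate 2 met replicate 2 of GC plate 6, with 3.03 ± 1.02 (limma adjusted p = 0.755). JAZ1 differed by 0.85 ± 0.34, JAZ5 by 0.72 ± 0.34, MYC2, the main activator of jasmonate genes, by 0.82 ± 0.40, and LOX3, a lipoxygenase of jasmonate synthesis, by 1.32 ± 0.87. For these 4 the differences on plate 2 were -0.13, -0.02, 0.02 and -1.39, while those on plate 4 were 1.27, 1.27, 1.80 and 2.75.

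ORA59, the ERF-type activator of the ethylene and jasmonate branch that leads to defensins, had signals of 391, 275, 655, 181 and 164 in FLT and 104, 104, 155, 86.0 and 95.5 in GC. The groups did not overlap, and FLT plate 6 came closest to GC (difference 1.45 ± 0.37, limma adjusted p = 0.656, with 1.905, 1.75 and 0.93 on plates 2, 4 and 6). Its target PDF1.2, a plant defensin gene, had 2768, 960.2, 2180.1, 141 and 92.1 in FLT and 51.8, 63.9, 47.4, 445 and 94.1 in GC. On plates 2 and 4 it was higher in FLT by 5.74 and 4.72, and on plate 6 the difference was -0.85, which left 2.70 ± 1.08 over all arrays (limma adjusted p = 0.788). Of the 19 listed genes of ethylene synthesis and response, 14 were higher, 5 of them at an unadjusted p under 0.05 (ERF2, EBF2, ERF104, EBF1 and ERF-1) and none lower at that p, with a median of 0.29 and medians of 0.24, 0.35 and 0.25 on plates 2, 4 and 6. The share higher at that p over all probe sets of at least 100 was 2.69%. ERF104 had 2173, 2192, 2140.3, 2223 and 1776 in FLT and 1682, 679.8, 414, 1297 and 1473 in GC. The FLT values were close together and the GC values wide apart, with the low ones on plate 4 (difference 1.095 ± 0.37, limma adjusted p = 0.755). EBF2, an F-box gene of ethylene feedback, differed by 0.46 ± 0.15 and ERF2 by 0.80 ± 0.24.

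**Figure D2:**
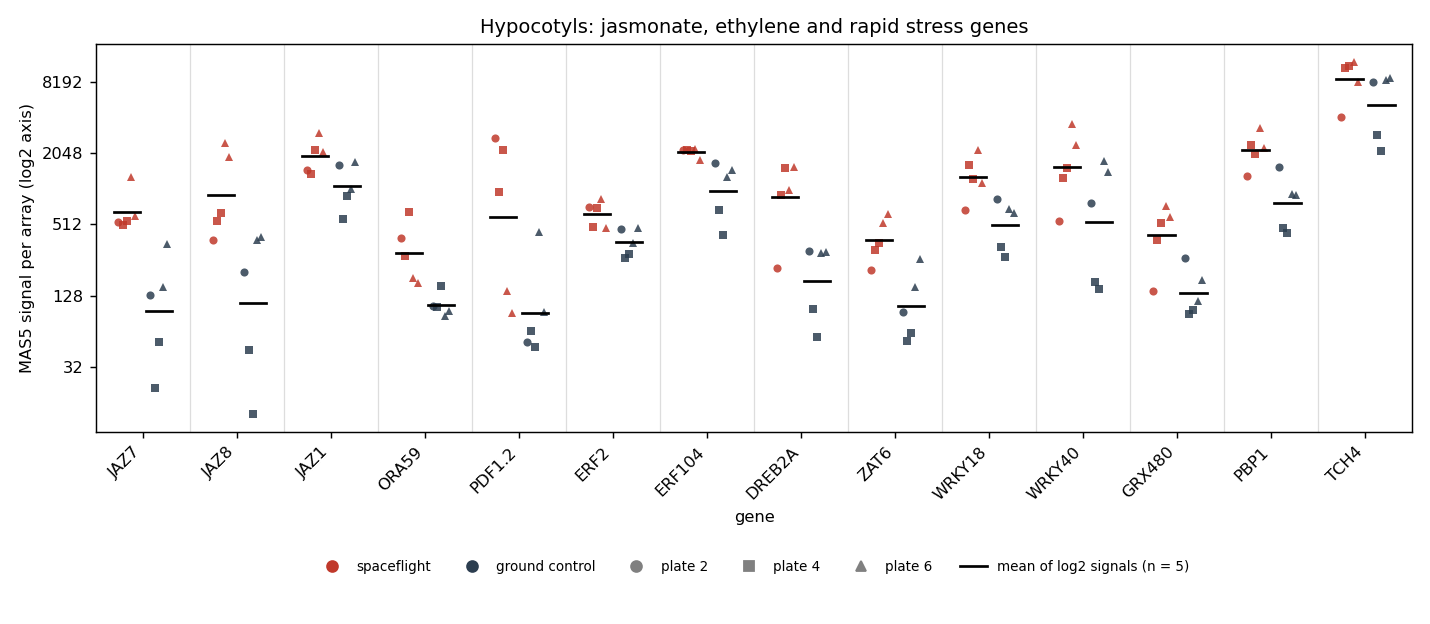
MAS5 signals on a log2 axis of jasmonate, ethylene and rapid stress genes, 1 point per array, coloured by environment and shaped by plate, with bars at the mean of log2 signals (5 arrays a group). In JAZ7, ORA59 and ERF104 the groups do not overlap, whereas from DREB2A to TCH4 the circle of FLT plate 2 lies lowest among FLT arrays and the squares of GC plate 4 lie lowest among GC arrays.

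AT1G48100, a polygalacturonase gene of pectin breakdown, had the smallest p among the genes of at least 100, with signals of 334, 261, 220.0, 264 and 225 in FLT and 508, 679.9, 493, 542 and 644 in GC. The groups were well apart, with a difference of -1.14 ± 0.16 (limma adjusted p = 0.198) and -0.60, -1.27 and -1.28 on plates 2, 4 and 6. Over the alternatives its adjusted p ran from 0.0279 (limma's trend and robust settings) to 0.801 (plate means), and it was under 0.05 in that setting and among probe sets of at least 300 (0.0329) but not in the others. The neighbouring peroxidase genes AT5G64110 and AT5G64120 were both lower. AT5G64110 had 583, 497, 369, 289 and 601 in FLT and 1566, 2107, 1342, 883 and 1084 in GC, and AT5G64120 had 2482, 1236, 1004, 1353 and 2299 in FLT and 5046, 6435, 3012, 3788 and 4146 in GC. Neither overlapped between groups, and their differences were -1.57 ± 0.29 and -1.47 ± 0.30 (limma adjusted p = 0.561 and 0.599). Another peroxidase gene, AT2G37130, differed by -1.19 ± 0.31 without overlap. These are class III peroxidases, secreted enzymes that can cross-link or cleave wall polymers, and the first 2 are close relatives whose transcripts may cross-hybridise.

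AT2G43620, a chitinase-family gene, had 5029, 1830.0, 1507, 3994 and 6209 in FLT and 9032, 11307, 8897, 8319.6 and 7430.3 in GC. The lowest FLT values were those of plate 4, and no FLT array reached GC (difference -1.47 ± 0.39, with -0.84, -2.59 and -0.66 on plates 2, 4 and 6). A second chitinase-family gene, AT3G47540, went the other way, with 385, 298, 367, 586 and 561 in FLT and 253, 216, 206, 149 and 254 in GC and a difference of 1.01 ± 0.23 without overlap. BGL2, the glucanase gene also called PR2, was lower but missed the p threshold (difference -0.98 ± 0.31, limma adjusted p = 0.737). The other listed salicylate genes at an unadjusted p under 0.05, GRX480 and WRKY38, were higher. These were 2 higher and 1 lower of 16, beside 2.69% and 3.22% of all probe sets of at least 100. AIR1, an auxin-induced gene of a small secreted protein, had 58.9, 76.3, 122, 88.1 and 59.9 in FLT and 292, 164, 494, 222 and 129 in GC, where 122 in FLT and 129 in GC were the nearest values (difference -1.57 ± 0.37). The remaining genes of the lower set without overlap were AT1G04660, AT2G15780, AT2G44370 and AT3G56290, with differences of -2.01, -1.34, -1.25 and -1.19, and GOLS3, described with the cold genes. In the higher set they were CNI1, AT3G03870 and AT4G28085, beside the genes given elsewhere. CNI1, a ubiquitin ligase gene of the carbon to nitrogen response, had 332, 351, 464, 494 and 438 in FLT and 188, 122, 94.1, 264 and 314 in GC (difference 1.205 ± 0.33), and the other two differed by 0.99 and 1.05.

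**Figure D3:**
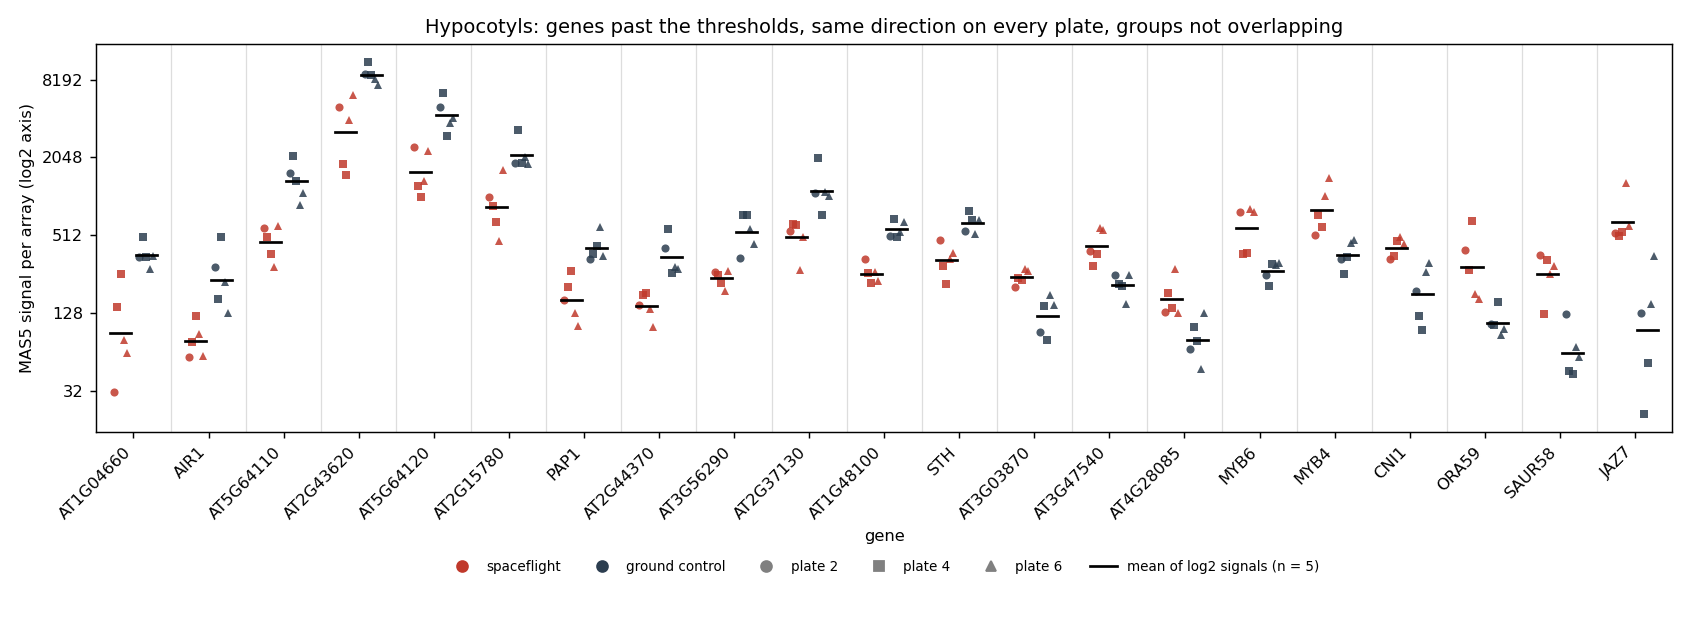
MAS5 signals on a log2 axis of 21 genes past the thresholds with a mean signal of at least 100, the same direction on every plate and no overlap between FLT and GC, namely all 9 higher genes and the 12 lower genes with the smallest p. Each point is an array, coloured by environment and shaped by plate, bars are means of log2 signals (5 arrays a group), and genes are ordered from the lowest difference (AT1G04660, -2.01) to the highest (JAZ7, 2.78).

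The listed wall families had medians near 0. Of 15 expansin genes of at least 100, EXLB3 and EXPA15 were lower at an unadjusted p under 0.05 (differences -1.24 ± 0.48 and -0.61 ± 0.27), none was higher at that p, and the median was -0.10. Of 17 XTH genes, 3 were higher at that p and none lower, with a median of 0.02. Shares at that p over all probe sets of at least 100 were 2.69% higher and 3.22% lower. XTH24 had signals of 2432, 1565, 2372, 2914 and 2244 in FLT and 1551, 1268, 999, 1459 and 1542 in GC. It was higher on every FLT array, by 0.75 ± 0.19 (limma adjusted p = 0.656), and by almost the same amount on each plate (0.65, 0.78 and 0.77 on plates 2, 4 and 6). XTH23 and XTH30 differed by 1.22 ± 0.50 and 0.59 ± 0.25, with XTH23 lower on plate 2 (-0.70). Among the genes of the primary wall and wall sensing, FER, which encodes the receptor kinase FERONIA, was higher without overlap (2181, 2072, 2287, 2088 and 2062 in FLT and 1820.0, 1951, 1243, 1803 and 1575 in GC, difference 0.37 ± 0.14), and the related receptor kinase gene HERK1 was lower (difference -0.61 ± 0.25), with a list median of 0.02.

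The auxin list lay slightly below 0, with medians of -0.16, -0.09 and -0.17 on plates 2, 4 and 6. Of 23 listed genes of auxin response, synthesis and transport, 7 were higher and 16 lower, with a median of -0.15 and 1 lower at an unadjusted p under 0.05 (IAA4, difference -0.54 ± 0.24). Nothing is read from that 1 gene, since 3.22% of all probe sets of at least 100 were lower at that p. Of the SAUR family, small auxin-responsive genes many of which act in hypocotyl elongation, 56 were measured and 18 had a mean of at least 100, with a median of 0.16. At an unadjusted p under 0.05, 4 were higher and 1 lower, beside 2.69% and 3.22% of all probe sets of at least 100. SAUR58 and SAUR1 were past the thresholds and higher, beside 0.185% of all probe sets of at least 100. SAUR58 had signals of 362, 125, 328, 257 and 293 in FLT and 125, 45.3, 43.4, 69.5 and 58.3 in GC. The lowest FLT array, on plate 4, and the highest GC array, on plate 2, were practically level at 125, and the difference was 2.03 ± 0.37 (limma adjusted p = 0.561) with 1.53, 2.19 and 2.11 on plates 2, 4 and 6. SAUR1 had 136, 201, 135, 183 and 186 in FLT and 84.3, 47.6, 71.3, 77.3 and 165 in GC and overlapped through GC plate 6 (difference 1.02 ± 0.30). PBP1, a calcium-binding partner of the auxin transport regulator PINOID, was past the thresholds at 1.499 ± 0.38, with -0.24, 2.29 and 1.58 on plates 2, 4 and 6. Among 18 listed gibberellin and brassinosteroid genes none had an unadjusted p under 0.05, and the median was 0.02.

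The touch list had the widest spread of its medians between plates. Of 22 listed genes of touch and rapid wounding, 21 were higher over all arrays, with a median of 0.66, but 2 were higher on plate 2, 21 on plate 4 and 18 on plate 6, with medians of -0.60, 1.89 and 0.20. WRKY18 was the 1 member at an unadjusted p under 0.05 (difference 1.34 ± 0.40). TCH4, WRKY40 and RRTF1, given next, were chosen for naming after their values were seen. TCH4, the touch gene of an XTH enzyme, had signals of 4134, 10732, 11119, 12114 and 8165 in FLT and 8076, 2902, 2137, 8495 and 8841 in GC. FLT plate 2 was low among the FLT arrays and both GC arrays of plate 4 were low among the GC arrays, so that the differences were -0.97, 2.13 and 0.20 on plates 2, 4 and 6. WRKY40 showed the same order, with 545, 1271, 1531, 3619.7 and 2380.1 in FLT and 769.6, 166, 147, 1752 and 1416 in GC. DREB2A, a transcription factor gene of drought and heat responses, was past the thresholds (difference 2.33 ± 0.67, limma adjusted p = 0.703), with 221, 913, 1528, 995 and 1564 in FLT and 303, 99.3, 57.2, 293 and 297 in GC. Here too FLT plate 2 lay within the GC range, and without it the other 4 FLT arrays all exceeded GC. RRTF1, an ERF gene of redox stress, ran from 89.7 and 95.3 on GC plate 4 to 3183 on FLT plate 6, with -0.91, 4.74 and 0.85 on plates 2, 4 and 6.

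Of the 21 listed cold and DREB genes, 15 were higher, with a median of 0.33 and plate medians of -0.34, 0.68 and 0.39. Past the thresholds were ZAT6 and DREB2A, higher, and GOLS3, lower, beside 0.185% and 0.156% of all probe sets of at least 100. ZAT6, a zinc finger gene of phosphate and cold responses, had 210.1, 313, 357, 530.2 and 625 in FLT and 93.2, 53.2, 61.6, 152 and 261 in GC. FLT plate 2 lay within the GC range, and the gene was higher in FLT on all 3 plates (1.17, 2.54 and 1.53 on plates 2, 4 and 6), with 1.87 ± 0.47 over all arrays. GOLS3, galactinol synthase of the cold regulon, had 146, 146, 109.6, 69.4 and 67.8 in FLT and 301, 314, 199.7, 149.9 and 158 in GC. The FLT value was below GC by a like amount on each plate (-1.05, -0.99 and -1.17 on plates 2, 4 and 6), plate 6 was low in both groups, and the groups did not overlap, by a margin of 146 against 150 (difference -1.07 ± 0.32). DDF1, another CBF-type factor gene, had 22.3, 794, 598, 959 and 548 in FLT and 173, 17.2, 13.9, 186 and 207 in GC, where the low values, on FLT plate 2 and GC plate 4, lay in the range of background. Of the WRKY family, 36 genes had a mean of at least 100, with 4 higher and none lower at an unadjusted p under 0.05 (WRKY18, WRKY22, WRKY38 and WRKY45) and a median of 0.17. The listed genes of heat shock (median 0.13, 8 of 11 higher) and of abscisic acid and drought (0.08, 7 of 11 higher) each had 1 member higher at that p, MBF1C and RD26. Beside these counts, 2.69% of all probe sets of at least 100 were higher at that p and 3.22% lower.

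Secondary wall genes were higher in FLT mainly on 1 plate. Of 20 listed genes, 15 were higher with a median of 0.33, but 8 were higher on plate 2, 8 on plate 4 and 19 on plate 6, with medians of -0.02, -0.19 and 1.16. CESA7, a cellulose synthase of the secondary wall, had signals of 942, 978, 919, 1691 and 1248 in FLT and 926, 1051, 1352, 316 and 562 in GC. The 2 GC arrays of plate 6 were the lowest of all 10 and the FLT arrays of plate 6 were among the highest. CESA4, COBL4 and LAC4, a laccase of lignin polymerisation, repeated this, with GC plate 6 at 224 and 474, 184 and 269, and 373 and 524, against lowest values elsewhere of 584, 495 and 981. CESA8 was the 1 member at an unadjusted p under 0.05, with 0.60, 0.51 and 0.78 on plates 2, 4 and 6 and 0.63 ± 0.18 over all arrays. Hypoxia genes ran the other way on that plate. Of 13 listed, 11 were lower with a median of -0.22, and the plate medians were 0.04, 0.23 and -0.73. ADH1, alcohol dehydrogenase, had 4328, 3752, 4953, 2592 and 1788 in FLT and 2986, 3486, 3225, 3916 and 9501 in GC, and HB1, a hemoglobin gene, had 1961, 4045, 4190.2, 2305 and 1668 in FLT and 2332, 2677, 2688, 3065 and 6324 in GC. In both genes replicate 2 of GC plate 6 stood far above all other GC arrays, and no member of the list had an unadjusted p under 0.05.

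**Figure D4:**
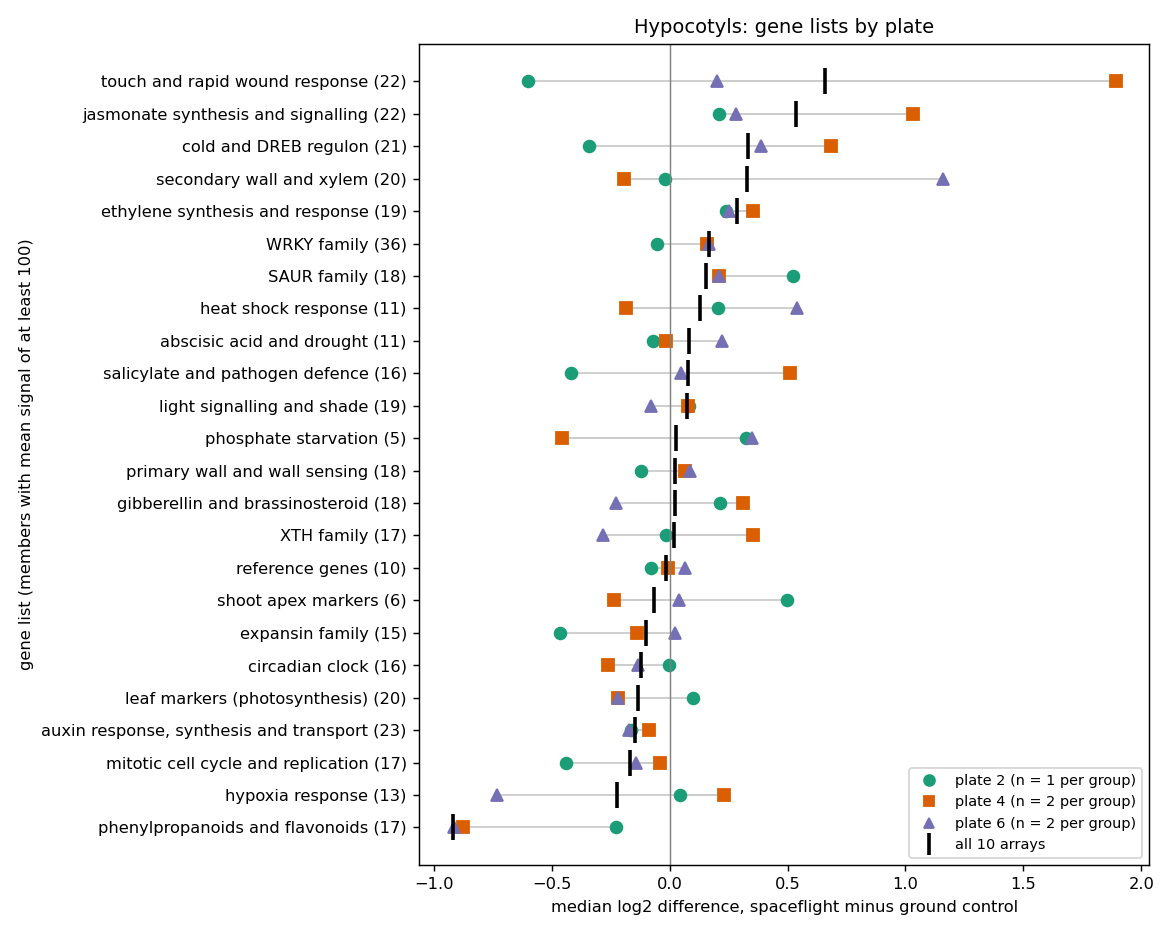
Median log2 difference, FLT minus GC, of each gene list (members with a mean signal of at least 100, number in brackets) on plate 2 (1 array per environment), plate 4 and plate 6 (2 arrays each), with a black bar for all 10 arrays. Ethylene genes stay between 0.24 and 0.35 and the flavonoid median is below 0 on every plate (-0.23, -0.88 and -0.91), whereas touch genes run from -0.60 on plate 2 to 1.89 on plate 4 and secondary wall genes reach 1.16 on plate 6.

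Plate was then taken into account across all probe sets. Over the 13491 probe sets of at least 100, the differences measured on single plates had a correlation of 0.07 between plates 2 and 4, 0.07 between plates 2 and 6 and 0.01 between plates 4 and 6, given as a description across genes, which are not independent and share array effects. In an additive limma fit the plate number reached an adjusted p under 0.05 in 3 probe sets (0.0132%), those of AT2G43140, AT1G76210 and AT2G14160, all with mean signals of 15.2 to 17.5, and 2254 had an unadjusted p under 0.05. Whether the FLT effect differed between plates 6 and 4 was tested as an interaction, and 0 probe sets (0%) had an adjusted p under 0.05, with 2216 at an unadjusted p under 0.05 and a smallest adjusted p of 0.164. When limma was fitted on the probe sets of at least 100 alone, 186 were called (1.38%), 66 with a higher (0.489%) and 120 with a lower (0.889%) FLT effect on plate 6 than on plate 4. With trend and robust settings there were 324, and among probe sets of at least 300 there were 275. Each plate and environment is 1 physical plate, so this test sets plate differences against the spread between 2 pools of the same plate.

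In that fit on probe sets of at least 100, the genes with the smallest p included PRF4, a profilin, with 174, 33.4, 27.1, 362 and 442 in FLT and 47.1, 139.6, 140.4, 118 and 102 in GC. Its signal was low on FLT plate 4 and high on FLT plate 6 (1.88, -2.22 and 1.87 on plates 2, 4 and 6), with an interaction of 4.09 ± 0.27 (limma adjusted p = 0.00228). NF-YA10, a CCAAT-binding factor gene, had 561, 98.4, 108, 773 and 939 in FLT and 318, 307, 310.0, 258 and 171 in GC, the same order (interaction 3.601 ± 0.319, limma adjusted p = 0.00455). LTP4, a lipid transfer protein gene, went from 661 and 335 on FLT plate 4 to 7325 and 10136 on FLT plate 6, with 1281 to 3023 on the GC arrays. GUX1, a xylan glucuronosyltransferase of the secondary wall, had 0.46, -0.95 and 1.61 on plates 2, 4 and 6. RRTF1 and ORA47, an ERF gene of jasmonate responses, had larger effects on plate 4 than on plate 6, with interactions of -3.89 and -2.91. By list, 6 of 22 touch genes, 4 of 21 cold genes, 3 of 16 salicylate genes and 3 of 36 WRKY genes were called with a lower effect on plate 6. So were 2 of 19 ethylene genes and 2 of 17 XTH genes, while 4 of 20 secondary wall genes had a higher effect. Every other list had at most 1 gene called in either direction. Lists share members, such as ZAT10 and ZAT12 in touch and cold, and WRKY18 and WRKY40 in touch and WRKY. These counts are therefore not separate results. Over all probe sets of that fit the shares were 0.889% lower and 0.489% higher. The 17 flavonoid genes had a median interaction of -0.06, and 0 of them were called, a count from which nothing is read at that background.

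The same genes were set beside leaves and roots cut from the same plants, 5 arrays per environment each. Organs of an environment came from the same pools and plates, so the counts below are a description. Of the 25 probe sets of at least 100 higher in FLT hypocotyls past the thresholds, 23 were higher in FLT leaves too (median 0.83) and 22 in roots (median 0.76). Of all 6244 probe sets of at least 100 that were higher in FLT hypocotyls by any amount, 58.3% were higher in leaves and 53.8% in roots, with medians of 0.04 and 0.02. Of the 21 lower ones past the thresholds, 16 were lower in leaves (median -0.43) and 13 in roots (median -0.45), beside 62.9% and 53.8% of all 7247 that were lower. MYB4 differed by 1.35 in leaves and 0.45 in roots and CNI1 by 1.13 and 1.32, beside 1.205 in hypocotyls. AT5G64120 differed by 0.13 and 0.14, AT2G43620 by 0.10 and 0.33, and SAUR58 by -0.62 and 0.76. The flavonoid list had medians of -0.92 in hypocotyls, -0.17 in leaves and -0.07 in roots, the touch list 0.66, 0.67 and 1.55, the jasmonate list 0.54, 0.43 and 0.86, and the secondary wall list 0.33, 0.01 and -0.03. Tested as an interaction over 30 arrays, with organs of the same pool of plants treated as a random block, 0 probe sets differed between hypocotyls and leaves (0%) and 0 between hypocotyls and roots (0%) at a limma adjusted p under 0.05, with 1297 and 1354 at an unadjusted p under 0.05 and smallest adjusted p-values of 0.157 and 0.209. No gene was therefore shown to respond in hypocotyls alone.

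**Figure D5:**
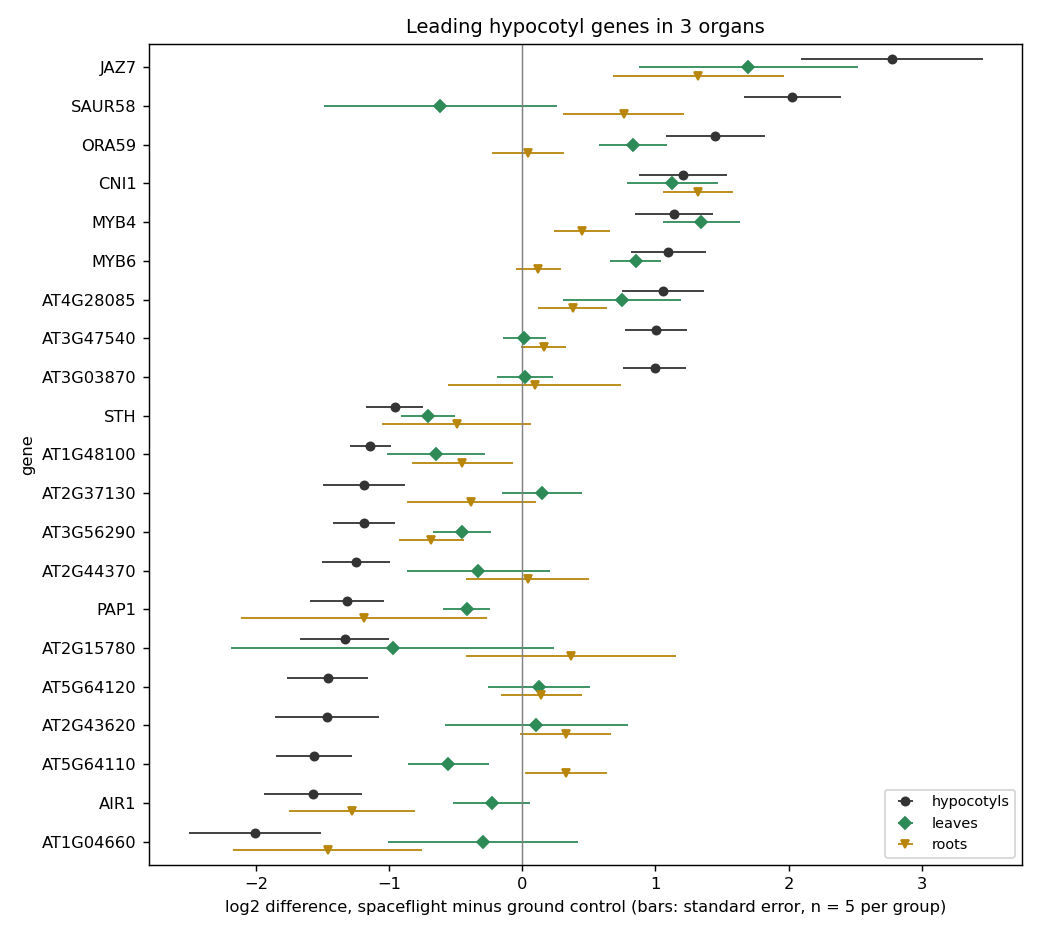
Log2 difference, FLT minus GC, with its standard error in hypocotyls, leaves and roots (5 arrays per environment each) for the 21 genes of the plot of leading hypocotyl genes. MYB4 and CNI1 lie above 0 in all 3 organs, while AT5G64120 and AT2G43620 lie near -1.47 in hypocotyls and between 0.10 and 0.33 in leaves and roots.

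The other lists gave small shifts. Of 16 clock genes, 12 were lower with a median of -0.12, among them the morning genes LHY, at 589.6, 563, 513, 557 and 571 in FLT and 679, 792, 678, 712 and 633 in GC, and CCA1 (differences -0.32 ± 0.10 and -0.42 ± 0.15). The groups did not overlap for LHY, at 1.25-fold, where 0.897% of all probe sets of at least 100 were lower without overlap. At an unadjusted p under 0.05, 2 of the 16 were lower, beside 3.22% of all probe sets of at least 100. Of 17 genes of the mitotic cell cycle and replication, 15 were lower with a median of -0.17 and 1 at an unadjusted p under 0.05 (MCM7, difference -0.35 ± 0.16). Nothing is read from that 1 gene, since 3.22% of all probe sets of at least 100 were lower at that p. Phosphate starvation genes (5 of at least 100, median 0.03) had no member at that p, and 10 reference genes had a median of -0.01. Among further genes past the thresholds, chosen for naming after their values were seen, ERF38 differed by -1.52, AT5G46730 by -1.68 and AT2G28780 by -1.16. RLP54, a receptor-like protein gene, was higher by 1.44 and ABCG19, an ABC transporter gene, by 1.19. The genes AT2G30550, AT2G44130, AT5G42200, AT1G63840, AT1G06620 and AT1G05575 were higher by 0.94 to 1.47. NAC052 differed by -0.94, from a probe set that several transcripts share. As a check on the accession mix, 25 probe sets that were at least 4 times higher in every leaf and root array than in any array of whole WS plants summed to 58156 to 72758 in FLT hypocotyls and 65570 to 71362 in GC hypocotyls, and none of them had an unadjusted p under 0.05.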

How the data were processed

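Total RNA of hypocotyl pools was amplified with the Ovation Pico WTA system, labelled and hybridised to Affymetrix ATH1 arrays. The authors computed MAS5 signals with the Affymetrix Expression Console, whose version is not given in the sources used here, and the deposited intensity values are on a linear scale, already scaled to a shared target per array. The authors also deposited p-values, q-values and log2 fold changes of their own comparisons, which were not used here.

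Signals were converted to log2 with no offset. FLT and GC were compared with R 4.3.3 and limma 3.58.1 (functions lmFit and eBayes, two-sided, Benjamini-Hochberg adjustment over all 22746 probe sets that are not array controls), without a plate term, as in the methods of the study, which used a plain t-test. Samples were grouped by their labels. The plate effect, the interaction of plate and environment and that of organ and environment were fitted in limma as well, the last over 30 arrays, with organs of the same pool of plants in a random block (correlation 0.031). For single values an exact permutation test over the 10 arrays was used, with a smallest possible p of 0.00794. The steps were tested on simulated data.

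Probe sets were named by locus through the table of reference genes, and where a gene had more than 1 probe set, that of highest mean signal stood for it. Named genes are those at an adjusted p under 0.05, up to 12 higher and 12 lower genes past the thresholds with no overlap and 1 sign on all plates, and up to 3 genes of each list. Others were chosen after their values were seen, among them TCH4, WRKY40, PBP1, DDF1 and all genes named for the plate interaction. The same holds for secondary wall, hypoxia and jasmonate genes beyond the first 3 of a list. The members and lists were chosen with earlier results of these data known. A list is described by counts and its median, and no list was tested.

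Alternatives were quantile normalization, scaling to the 75th percentile, adding the 25th percentile of all signals (30.7) before log2, limma with trend and robust settings, filters at mean signals of 100 and 300, a block for the plate number, physical plate as a random block (estimated correlation 0.213), plate means, the methods' t-test, all 30 arrays in 1 fit, and leaving out each array. No counts give a depth on arrays, so precision is limited by the number of arrays and by how far a signal stands above background. Promoter sequences were not analysed here.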

Additional observations from a re-analysis of the deposited data

Results flagged for a closer look

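In 284 groups of 5 arrays checked for the named genes, 18 (6.34%) held an array whose gap to the nearest of the others passed Dixon's 95% critical value of 0.71, where chance gives about 1 in 20 for groups not chosen by their values. Many of these genes were so chosen, so the share is not comparable with that rate. Of these, 7 were on FLT plate 2 and 5 on replicate 2 of GC plate 6.

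FLT plate 2 was low among the FLT arrays in DDF1 (22.3 against 548 to 959), RRTF1 (508 against 2205 to 3183), DREB2A (221 against 913 to 1564), ZAT10 (2489.8 against 6036 to 7860.1), EXLA1 (1506 against 4558 to 5367), XTH23 (593 against 1457 to 2089.5) and AT1G63840 (1993 against 3958 to 4990.4).

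Replicate 2 of GC plate 6 was high among the GC arrays in ADH1 (9501 against 2986 to 3916), HB1 (6324 against 2332 to 3065), ELIP2 (749.8 against 344 to 395), EBF2 (444 against 299 to 330.1) and AT2G28780 (312 against 122 to 156). Replicate 1 of the same plate was high in AT1G63840 (2799 against 1572 to 1857).

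On FLT plate 6, replicate 1 was high in JAZ7 (1289 against 502 to 608) and low in AT2G37130 (277 against 499.8 to 631), and replicate 2 was low in ERF104 (1776 against 2140.3 to 2223). GC plate 2 was low in TIR1 (459 against 692 to 763), and replicate 1 of GC plate 4 was high in AT2G15780 (3349 against 1838 to 2079).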

How the results depend on the processing

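At an adjusted p under 0.05 the count of 1 became 0 with quantile normalization, the offset, the filter at 100, physical plate as a random block, plate means, the methods' t-test and all 30 arrays in 1 fit, and stayed at 1 with 75th percentile scaling (AT2G15130), with trend and robust settings and with the filter at 300 (both AT1G48100). Leaving out 1 array gave 0 to 4. The plate numbers did not pair the samples (correlations of deviations -0.01, 0.08 and 0.16), and with the plate number as a replicate block 2 probe sets passed, AT4G07370 and AT2G14160, both of low signal.

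At the thresholds of the study, all probe sets together, the count of 173 was 74 with the offset, 79 with the filter at 100 and 57 with that at 300, and 162 to 227 without 1 array. The 96 higher were 44, 46 and 33 under these settings, 61 with the methods' t-test, 152 with all 30 arrays and 77 to 139 without 1 array. The 77 lower were 30, 33 and 24, and 62 to 104 without 1 array. Among probe sets of at least 100, the count of 46 was 79 with the filter at 100, 72 with the replicate block, 16 on plate means, 78 with all 30 arrays and 24 to 82 without 1 array. The 25 higher were 38 with the offset, 46 with the filter at 100, 43 with the replicate block, 14 with physical plate as a random block, 6 on plate means, 14 with the methods' t-test, 56 with all 30 arrays and 7 to 54 without 1 array. The 21 lower were 33 with the filter at 100, 10 on plate means and 13 to 35 without 1 array. Of the 46, 33 remained among the 34 called with physical plate as a random block, and 32 among the 32 of the methods' t-test.

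The plate effect of 3 was 0 with the offset and with the filter at 100, 88 with trend and robust settings, 10 with the filter at 300 and 1 to 6 without 1 array. The difference between plates 6 and 4 went from 0 to 324 with trend and robust settings, 186 with the filter at 100 and 275 with that at 300. The interactions with organ stayed at 0 under all alternatives run for them. The filters leave fewer probe sets in the fit, and no cause of these changes was tested.

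Of 2967 pairs of a named gene and an alternative, 2635 kept direction and side of the thresholds, 252 lost the call, 67 gained it and 13 changed sign, none of these in a gene past the thresholds. Past the thresholds in each alternative run for them were 7 genes, AT1G48100, AT5G64110, AT5G64120 and AT2G37130 over 21, and SAUR58, ORA59 and AIR1 over 20, since the filter at 300 leaves these out. The sign changed in 6 genes near 0. Without 1 array the difference ran from -0.065 (FLT plate 6 replicate 1 left out) to 0.68 in SPX1, from -0.25 (FLT plate 6 replicate 2) to 0.44 in PAP17, from -0.059 to 0.042 in C4H (0.021 on plate means), from -0.34 (FLT plate 6 replicate 2) to 0.89 in LTP4, from -0.23 (FLT plate 6 replicate 2) to 0.77 in PRF4 and from -0.029 (FLT plate 6 replicate 2) to 0.78 in NF-YA10. Of 525 list medians 518 moved by less than their spread.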
